A study of Homo sapiens with 2 samples.

Results

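The genes described here are 10 neighbours on the short arm of chromosome 20, in band 20p13: CPXM1, C20orf194, EBF4, IDH3B, VPS16, PTPRA, DDRGK1, ITPA, SLC4A11 and ATRN. They are 10 of the 37122 genes in the count table. CPXM1 and C20orf194 were chosen by their read counts, which were near 0 in the Ramos640 library, and the other 8 because they lie near these 2 genes. The low counts of CPXM1 and C20orf194 are therefore a description, and the question is how far along the chromosome the low counts reach.

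RNA-seq was performed on Ramos cells, a Burkitt's lymphoma (BL) cell line of B-cell origin, and on Ramos640 cells, which were derived from Ramos by selection for resistance to the complement-dependent cytotoxicity of rituximab, an antibody against CD20. Ramos640 cells received rituximab together with 20% normal human serum (NHS) every 21 days, at 640 mg/mL by the sample labels and 640 μg/mL by the study's methods. Both cell lines grew in RPMI 1640 medium to which fetal bovine serum (10%) and the antibiotics penicillin and streptomycin (1%) were added. Each library was made from RNA pooled over 3 passages, so there was 1 library per cell line and no difference has a replicate check or a test. The resistant cells are 1 selected population, so an effect of rituximab cannot be told apart from drift in culture.

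The 2 libraries held 38030090 reads (Ramos) and 30871826 reads (Ramos640), and a count of 0 allows up to 3 reads, or 0.0789 and 0.0972 CPM, the read count scaled to a library total of 1e6 reads. Read counts were normalised with size factors (medians of ratios), and log2 fold changes are those of Ramos640 relative to Ramos, with 1 added to both normalised read counts. Intervals are exact 95% intervals and cover counting error only. A gene is called higher or lower in Ramos640 past 1.5-fold, the fold part of the study's criterion. The study also set a limit on the false discovery rate, which was not applied here because no test was run. Calls are made among the 18778 genes whose reads in both libraries sum to 10 or more. B-cell and BL markers were read in both libraries, with none of the 10 at 0 and a summed level of 5176 CPM in Ramos and 5810 CPM in Ramos640. CD79B weighed most in this sum (1827 and 2685 CPM), and the median log2 fold change of the 10 markers was -0.20. MS4A1, which encodes CD20, was lower in Ramos640 (254 and 61.7 CPM), as were PAX5 (-0.80) and MME (-0.92). CD79B (0.64) and MYC (0.79) were higher. These are 3 lower and 2 higher of 10, beside 17.3% and 14.6% over all genes tested. The 6 markers of other cells summed to 17.2 and 7.39 CPM, mostly from COL1A1 (651 and 192 reads), with CD3E at 1 and 31 reads and CD3D at 0 in both. Their part in the results was not tested.

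The genes of this stretch have unrelated functions. CPXM1 encodes a secreted protein of the metallocarboxypeptidase family for which no peptidase activity is known, related to CPXM2 and AEBP1. C20orf194, now named DNAAF9, encodes a protein that binds ARL3, a small GTPase that releases lipid-anchored cargo in cilia. The neighbours include a subunit of a mitochondrial dehydrogenase, a subunit of the lysosomal tethering complexes, a receptor phosphatase and enzymes of protein and nucleotide quality control, most of which are in use in nearly every cell.

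RefSeq promoter windows (250 bases before to 50 bases after the gene start, taken from GRCh38.p14) were found for 7 of the 10 genes, not for C20orf194, DDRGK1 and SLC4A11. Each of the 7 matched GRCh37 exactly and at 1 place. The windows of CPXM1 and of IDH3B and VPS16, the nearest genes of the set on either side that had at least 10 reads, are shown because CPXM1, nearly unread in Ramos640, lies between these 2 genes. Capitals mark the dinucleotide CG, the place of most DNA methylation in human cells, and each window is written 5′ to 3′ along its gene.
CPXM1: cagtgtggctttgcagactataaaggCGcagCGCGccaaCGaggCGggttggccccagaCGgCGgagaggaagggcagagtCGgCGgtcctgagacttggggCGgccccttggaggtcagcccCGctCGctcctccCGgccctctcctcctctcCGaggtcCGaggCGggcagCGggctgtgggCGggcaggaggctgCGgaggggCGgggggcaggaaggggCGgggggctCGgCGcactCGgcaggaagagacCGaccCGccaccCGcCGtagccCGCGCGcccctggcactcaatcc
IDH3B: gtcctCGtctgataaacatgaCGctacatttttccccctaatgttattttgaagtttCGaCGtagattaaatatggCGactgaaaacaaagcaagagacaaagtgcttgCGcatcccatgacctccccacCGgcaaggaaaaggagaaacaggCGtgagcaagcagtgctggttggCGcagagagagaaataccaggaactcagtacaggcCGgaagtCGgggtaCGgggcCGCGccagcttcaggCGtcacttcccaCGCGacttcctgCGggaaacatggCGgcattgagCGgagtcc
VPS16: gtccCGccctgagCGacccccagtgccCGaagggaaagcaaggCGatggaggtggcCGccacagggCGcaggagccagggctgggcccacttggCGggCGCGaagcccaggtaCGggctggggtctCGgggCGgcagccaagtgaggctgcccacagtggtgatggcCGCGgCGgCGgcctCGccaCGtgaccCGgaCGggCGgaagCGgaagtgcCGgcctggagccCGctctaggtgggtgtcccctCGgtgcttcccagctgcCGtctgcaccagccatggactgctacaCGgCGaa
On GRCh37 these windows are chr20:2781224-2781523 on the minus strand (CPXM1), chr20:2644813-2645112 on the minus strand (IDH3B) and chr20:2821141-2821440 on the plus strand (VPS16). The CPXM1 window holds 31 CG, more than 79.6% of the 27305 promoter windows of the same length. The window of IDH3B holds 20 CG and that of VPS16 holds 28, against a median of 14 over all windows. CPXM1 and the 2 genes read in both libraries thus all had windows with more CG than the median window. Of the other 4 genes, EBF4 has 48 CG, ATRN 47, PTPRA 38 and ITPA 15. The RefSeq window of ITPA (chr20:3184461-3184760) does not lie at the start of ITPA in the GENCODE annotation used here (3189514) but before it, inside DDRGK1. The core of the EBF binding motif, CCCNNGGG, reads the same on both strands and is present in 18.6% of all windows. It occurs in the windows of EBF4 (3 times) and PTPRA (1 time) and in none of the other 5, which says only that these letters are not in those windows. DNA methylation and factor binding were not measured.

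CPXM1 and C20orf194 were each read in Ramos and almost unread in Ramos640. CPXM1 (chr20:2774720-2781273, minus strand) had 844 reads in Ramos and 2 in Ramos640, or 22.2 CPM (interval 20.7 to 23.7) and 0.0648 CPM (0.00785 to 0.234). The ratio of the normalised read counts was 324, with a counting interval from 89.4 to 2680. C20orf194 (chr20:3229952-3388316, minus strand) had 123 reads in Ramos and 1 in Ramos640, or 3.23 CPM (2.69 to 3.86) and 0.0324 CPM (0.00082 to 0.18). Its ratio was 94.4, with an interval from 16.6 to 3760. At the Ramos rate the Ramos640 library would have held 648 reads of CPXM1 and 94.4 of C20orf194. Set against the floor of 3 reads in Ramos640 instead, the ratios were 216 and 31.5. In bulk RNA, less transcript per cell and fewer cells that carry the transcript cannot be told apart.

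**Figure D1:**
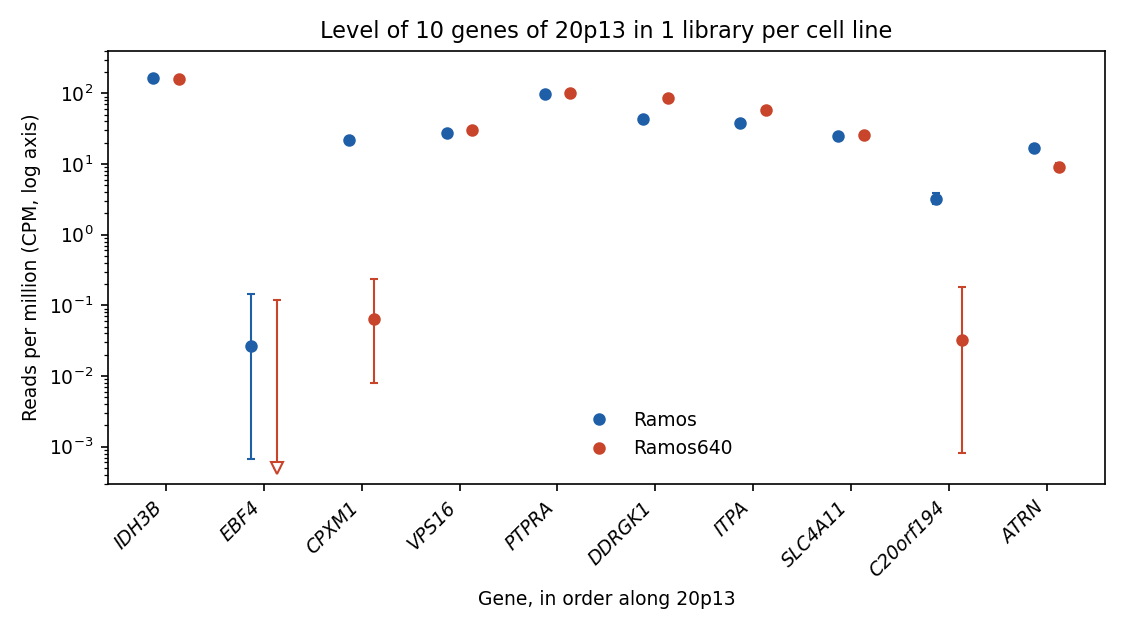
CPM (log axis) of the 10 genes in order along 20p13, 1 point per library with its exact 95% counting interval. The open triangle is a count of 0, drawn at the foot of the axis. CPXM1 and C20orf194 stand at 22.2 and 3.23 CPM in Ramos and at 0.0648 and 0.0324 CPM in Ramos640, while EBF4 is near 0 in both libraries and the other 7 genes stay above 9 CPM.

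The fitted log2 fold change was -7.82 for CPXM1 and -5.67 for C20orf194. These values depend on the pseudocount, because 1 or 2 reads stand in the Ramos640 library. With 0.1 added in place of 1 they were -8.28 and -6.44, and with 10 added they were -5.93 and -3.40. In Ramos the 2 genes were not alike in level. Per kilobase of the canonical transcript, CPXM1 was at 9.34 RPKM and C20orf194 at 0.468 RPKM, the lowest of the 9 genes of the set with at least 10 reads.

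Few genes showed this pattern. Among all genes tested, 1 had a lower log2 fold change than CPXM1 and 11 had a lower one than C20orf194. Of 12418 genes with at least 100 reads in Ramos, 10 genes (0.0805%) had 3 or fewer in Ramos640. Besides CPXM1 and C20orf194 these were LILRB1 (782 and 1 reads), PLCXD3 (350 and 2), IL7R (237 and 0), CNKSR2 (219 and 1), PRKCB (216 and 0), LOC100505501 (133 and 3), TLL1 (111 and 0) and PLCB2 (103 and 1). A position was found for 9 of the 10 genes. CPXM1 and C20orf194 lie 0.449 Mb apart, PLCXD3 and IL7R lie 5.43 Mb apart on chromosome 5, and each of the other 5 was alone on its chromosome. CPXM1 and C20orf194 were chosen for their low counts, so their ranks and the share of 0.0805% are descriptions. For the same reason the closeness of this pair is given as a distance and not as a test.

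**Figure D2:**
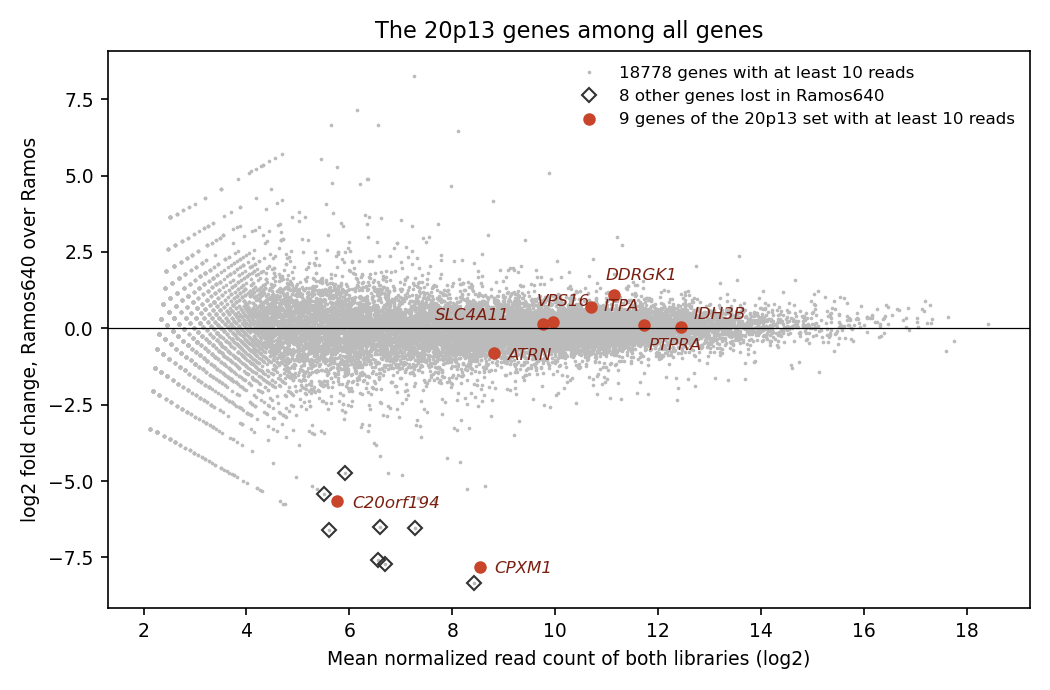
The log2 fold change (Ramos640 relative to Ramos) against the mean normalised read count of both libraries (log2) for the 18778 genes with at least 10 reads, each point being 1 gene. CPXM1 (-7.82) and C20orf194 (-5.67) lie with the 8 other genes lost in Ramos640 (open diamonds), and the other 7 genes of the set lie between -0.82 and 1.09, inside the main cloud.

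Between CPXM1 and C20orf194 there are 448.7 kb with 15 protein-coding genes in the table, 10 of them with at least 10 reads. None of these 10 genes was lower by the fold criterion and 4 were higher, against a background of 17.3% lower and 14.6% higher over all genes tested and of 17% lower and 9.54% higher over the protein-coding genes tested. With the GC trend (the running median of log2 fold changes over genes of like transcript GC content) subtracted, 2 of the 4 (DDRGK1 and PROSAPIP1) were higher and none was lower. Over the protein-coding genes with the trend subtracted, 8.21% were higher and 15.0% lower. PROSAPIP1 had only 59 and 88 reads, and its log2 fold change before subtraction was 0.94 (interval 0.47 to 1.46). The log2 fold changes of the 10 genes ran from -0.33 (UBOX5) to 1.09 (DDRGK1) with a median of 0.20. Their summed reads were 12434 (Ramos) and 13132 (Ramos640), and the log2 ratio after scaling was 0.46. The low counts of CPXM1 and C20orf194 were thus not shared by these 10 genes, while the other 5 had too few reads to compare.

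On the other side of CPXM1 the nearest gene is EBF4 (chr20:2673426-2740754, plus strand), a transcription factor of the early B-cell factor family. It had 1 read in Ramos and 0 in Ramos640, both under the floor of 3 reads, so it cannot show whether the low counts extend toward it. The next gene, IDH3B, ends 129.9 kb before CPXM1 and did not share them. On the side toward C20orf194, PCED1A starts 34.7 kb after CPXM1 and had 164 and 129 reads (log2 fold change 0.035, interval -0.31 to 0.38). The stretch around CPXM1 without a protein-coding gene of at least 10 reads other than CPXM1 therefore runs from IDH3B to PCED1A.

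Toward CPXM1, C20orf194 is bounded more closely. SLC4A11 ends 9.75 kb before it and had 945 and 801 reads (log2 fold change 0.14). On the far side ATRN starts 63.3 kb after it and was itself lower (650 and 283 reads, -0.82), so it is not an unchanged bound. The next gene with at least 10 reads, HSPA12B, had only 21 and 11 (-0.52, interval -1.75 to 0.57). After it, C20orf27 (chr20:3734155-3748428) had 5603 and 6794 reads and was higher (0.66). Inside C20orf194 itself, on the same strand, lies the processed pseudogene UBE2V1P1, with 70 and 59 reads (log2 fold change 0.13, interval -0.39 to 0.66). Such a pseudogene is a copy of a spliced transcript, so reads of the parent gene at another locus can be assigned to it, and these reads need not come from this place.

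**Figure D3:**
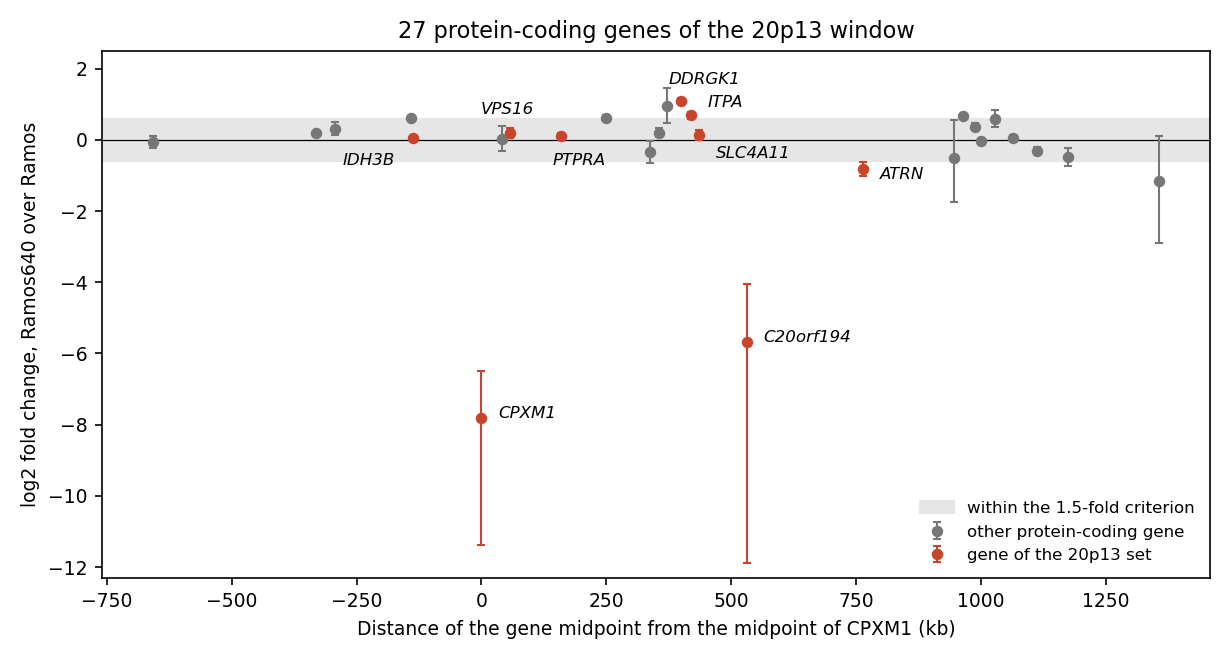
The log2 fold change of 27 protein-coding genes against the distance of each gene's midpoint from that of CPXM1 (kb), with exact 95% counting intervals. The grey band is the range inside the 1.5-fold criterion, and a point of CPXM1 or C20orf194 sits inside its interval at a place set by the pseudocount. CPXM1 and C20orf194 are the only 2 genes below -2, and the 10 genes between them lie from -0.33 to 1.09.

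Over a wider window, from 1 Mb before IDH3B to 1 Mb after ATRN (chr20:1639041-4631765), 27 of the 43 protein-coding genes had at least 10 reads, and 9 had no reads. In this window 4 genes (14.8%) were lower and 7 genes (25.9%) were higher, beside 17% and 9.54% over the protein-coding genes tested. With the GC trend subtracted, 5 genes (18.5%) were lower (HSPA12B, with 21 and 11 reads, was added) and 2 (7.41%, DDRGK1 and PROSAPIP1) were higher. The same shares over the protein-coding genes were 15.0% and 8.21%, near those of the window. With scaling to total counts, 3 genes of the window were higher. The 4 lower genes were CPXM1, C20orf194, ATRN and SMOX, a spermine oxidase with only 19 and 6 reads (log2 fold change -1.17, interval -2.90 to 0.099). The 7 higher genes were DDRGK1, PROSAPIP1, ITPA, C20orf27, MRPS26, NOP56 and AP5S1, from 1.09 for DDRGK1 down to 0.59 for AP5S1. NOP56 and AP5S1 lay just past the criterion (1.52-fold and 1.51-fold). The median log2 fold change of the window was 0.12, beside -0.058 over the protein-coding genes tested and -0.015 over all genes tested. It was 0.033 over the 306 protein-coding genes of chromosome 20 outside the window.

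The 10 genes of the window beyond C20orf194 included both lower genes other than CPXM1 and C20orf194. These were 20% of the 10, beside 17% of the protein-coding genes tested. The median log2 fold change of the 10 was -0.17, with 6 of the 10 below 0. The 5 genes before CPXM1 had a median of 0.19, with 4 of the 5 above 0. Of the 12092 protein-coding genes tested, 6611 lay below 0 and 5480 above it. Sets of 5 and 10 genes are too small to show or exclude a contrast between the sides. Both medians lay within the quartiles of all genes tested (-0.40 and 0.34).

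Of the 10 genes of the set, 9 had at least 10 reads. By the fold criterion 3 were lower (CPXM1, C20orf194 and ATRN), 2 were higher (DDRGK1 and ITPA) and 4 lay within it, beside 17.3% lower and 14.6% higher over all genes tested. Since 2 of the 3 lower genes were picked for their low counts, these shares say nothing of the set as a whole.

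DDRGK1 and ITPA, which lie side by side, were the 2 higher genes. DDRGK1 (chr20:3170996-3185331, minus strand) anchors the ligase for UFM1, a ubiquitin-like modifier, to the endoplasmic reticulum. Its reads numbered 1640 in Ramos and 2691 in Ramos640, or 43.1 and 87.2 CPM, with a log2 fold change of 1.09 (interval 1.01 to 1.18), and 1079 of the genes tested had a higher one. ITPA (chr20:3189514-3204516, plus strand) removes deaminated purine nucleotides from the nucleotide pool. It had 1444 and 1787 reads, or 38.0 and 57.9 CPM, a log2 fold change of 0.69 (interval 0.59 to 0.79).

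Across genes, log2 fold changes were higher at higher GC content of the transcript. The running median over protein-coding genes of like GC content was 0.22 at DDRGK1 (59.8% GC) and 0.20 at ITPA (57.1% GC). After this trend was subtracted, DDRGK1 stood at 0.88 and ITPA at 0.49, which is no longer past the criterion.

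IDH3B, VPS16, PTPRA and SLC4A11 differed little between the libraries. IDH3B (chr20:2639041-2644865, minus strand), the beta subunit of the NAD-dependent isocitrate dehydrogenase of the citric acid cycle, had 6225 and 4932 reads, or 164 and 160 CPM. Its log2 fold change was 0.045 with an interval from -0.009 to 0.099, and -0.035 when scaled to total counts, so it has no stable sign. VPS16 (chr20:2821349-2847378, plus strand), a core subunit of the tethering complexes HOPS and CORVET that bring endosomes and lysosomes together, had 1057 and 927 reads, or 27.8 and 30.0 CPM (log2 fold change 0.19, interval 0.063 to 0.32). Its 5′ end overlaps PCED1A on the opposite strand.

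PTPRA (chr20:2854066-3019722, plus strand) is a receptor tyrosine phosphatase that activates SRC family kinases by removing their inhibitory phosphate. It had 3720 and 3101 reads, or 97.8 and 100.4 CPM (log2 fold change 0.12, interval 0.049 to 0.19). SLC4A11 (chr20:3208063-3220205, minus strand), a membrane transporter best known from the corneal endothelium, had 945 and 801 reads, or 24.8 and 25.9 CPM (0.14, interval 0.005 to 0.28). With the GC trend subtracted, VPS16 stood at 0.0096, PTPRA at 0.051, SLC4A11 at -0.047 and IDH3B at -0.089. For these 4 genes, all values under every scaling tried stayed within the fold criterion.

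ATRN (chr20:3451665-3631765, plus strand), which encodes the transmembrane and secreted protein attractin, was lower in Ramos640 to a far smaller degree than C20orf194 next to it. Its reads numbered 650 in Ramos and 283 in Ramos640, or 17.1 CPM (15.8 to 18.5) and 9.17 CPM (8.13 to 10.3). Its log2 fold change was -0.82 (interval -1.03 to -0.61), a value below which 11.6% of the genes tested lay, so a change of this size was not rare. The GC trend at ATRN was -0.00087, and its log2 fold change with the trend subtracted was -0.82 as well. The pseudogene SF3A3P1 within ATRN, on the opposite strand, had 339 and 334 reads (0.36).

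The genes that work with each member were read as lists chosen for their function, to place the 20p13 genes beside their partners. The counts of called genes in these short lists are to be read beside the shares over all genes tested, 17.3% lower and 14.6% higher. Among 8 metallocarboxypeptidase genes related to CPXM1, 4 had at least 10 reads. AEBP1, which encodes a collagen-binding relative of CPXM1, was higher in Ramos640, with 417 and 846 reads (log2 fold change 1.40, interval 1.23 to 1.57). CPXM2, the closest relative of CPXM1, had 12 and 2 reads (-1.81, interval -5.41 to -0.037), and CPD, a carboxypeptidase of the Golgi, had 917 and 519 (-0.44). In Ramos640 AEBP1 stood at 6.69 RPKM and CPXM1 at 0.0273 RPKM, while in Ramos CPXM1 was the higher of the 2 (9.34 and 2.68 RPKM).

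Of the early B-cell factor family, EBF1, which sets the B-cell fate, was the only paralog with reads. It had 692 and 362 reads (log2 fold change -0.55, interval -0.74 to -0.37) and lay within the fold criterion, while EBF2 and EBF3 had none. Of its cofactors, ZNF521 had 0 and 13 reads and ZNF423 had 4 and 2. Transcription from the EBF family in both libraries thus came nearly all from EBF1, not from EBF4.

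Among 20 genes of ARL3 trafficking and dynein arm assembly, 17 had at least 10 reads, and 4 were lower and 3 were higher. The shares over all genes tested were 17.3% and 14.6%. The median log2 fold change of the list was -0.36, beside -0.015. Both the 4 lower genes and the median include C20orf194, which was chosen for its low counts, so they say nothing of the list as a whole. ARL3 itself, the partner of C20orf194, had 3872 and 3411 reads (0.20, interval 0.13 to 0.26). RP2, the protein that switches ARL3 off, was lower (805 and 305 reads, -1.02), as was SPAG1, a dynein assembly factor (216 and 92 reads, -0.84). ARL2, a relative of ARL3, was higher (789 and 1292 reads, 1.09). The remaining calls rest on few reads, DNAAF1 with 10 and 3, DNAAF3 with 7 and 10 and ZMYND10 with 14 and 29.

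All 18 citric acid cycle genes had at least 10 reads, with 1 lower and 2 higher (17.3% and 14.6% over all genes tested) and a median log2 fold change of 0.035. The 3 subunits of the isocitrate dehydrogenase had unequal values. IDH3A, the catalytic subunit, was higher (2813 and 3890 reads, 0.85, interval 0.78 to 0.92), IDH3G had 2311 and 2518 reads (0.50) and IDH3B stood at 0.045. Per length, IDH3B was the most abundant of the 3 in both libraries, at 106 and 104 RPKM, against 45.5 and 61.1 for IDH3G and 18.1 and 30.9 for IDH3A. The 2 other calls were OGDH (higher, 0.62) and IDH2, the NADP-dependent enzyme of mitochondria (lower, -0.68).

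Of 10 HOPS, CORVET and VPS33B-VIPAS39 genes, all with at least 10 reads, 1 was lower, none was higher and the median was 0.11, beside 17.3% lower and 14.6% higher over all genes tested. VPS11 (0.13), VPS18 (0.16) and VPS33A (0.080), which form the shared core with VPS16, had values like its own 0.19. The lower gene was VPS8, a subunit of CORVET (1440 and 730 reads, -0.60). Among 9 UFMylation genes, DDRGK1 was the only one past the criterion, and the median was 0.15. CDK5RAP3, which binds DDRGK1 and UFL1 in the same ligase complex, had 3157 and 3358 reads (0.47), and UFL1 had 1691 and 1027 (-0.34).

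Among 9 genes of nucleotide pool sanitation, ITPA was the only gene called higher, and the median was 0.058. PTPRA was listed with 16 other receptor phosphatases and SRC family kinases or their regulator CSK, of which 11 genes in all had at least 10 reads, with a median of -0.035. PTPRE, the closest relative of PTPRA, had 331 and 251 reads (-0.018). PTPRC, the CD45 phosphatase of leukocytes, was lower (8585 and 3367 reads, -0.97), as were PTPRJ (66 and 12) and PTPRG (22 and 1), while PTPRF was higher on 4 and 7 reads.

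In the SLC4 family 7 of 10 genes had at least 10 reads, with a median of -0.28, and SLC4A7 (678 and 263 reads, -0.98) and SLC4A10 (112 and 29, -1.54), both sodium bicarbonate transporters, were lower. SLC4A2, an anion exchanger, had 2589 and 2442 reads (0.30), near the 0.14 of SLC4A11. In the attractin family, ATRN and its paralog ATRNL1 (287 and 108 reads, -1.02) were both lower, while MGRN1, a ubiquitin ligase that acts in the same pathway, had 825 and 855 reads (0.43).

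**Figure D4:**
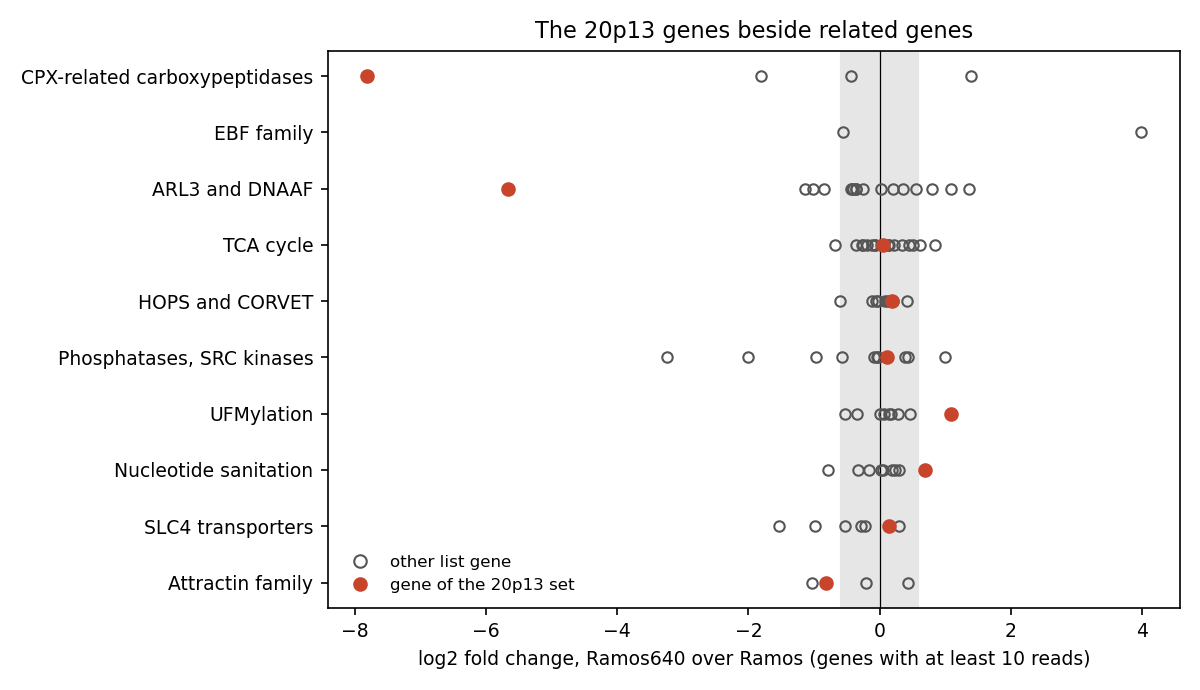
The log2 fold change of each gene with at least 10 reads in the 10 lists, 1 row per list, with the 20p13 genes as filled points (none for the EBF family, since EBF4 had 1 read) and the range inside the 1.5-fold criterion in grey. CPXM1 (-7.82) and C20orf194 (-5.67) lie below all other genes of their lists, DDRGK1 (1.09) and ITPA (0.69) lie above all others of theirs, and VPS16 and IDH3B lie among their partners.

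The nearest genes with reads on each side of the 9 lost genes with a position were set beside each other. Over the 5 genes with at least 100 reads on each side, the median log2 fold change was 0.16 around CPXM1 (range -0.33 to 0.62) and 0.48 around C20orf194 (range -0.82 to 1.09), with 0 and 1 of 10 neighbours lower, beside 17.3% of all genes tested. Around the 7 other lost genes with a position, these medians ran from -0.39 (PLCXD3) to 0.17 (PLCB2), with 0 to 4 of 10 neighbours lower. LILRB1, with 4 lower neighbours, had the most, and PRKCB and PLCB2 had none, like CPXM1.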

How the data were processed

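Total RNA of Ramos and Ramos640 cells, each pooled over 3 passages, was sequenced on the Ion Proton. The authors removed adaptors, aligned reads to GRCh37 with MapSplice (v2.1.6) and deposited whole-number read counts per gene without normalization. The counting program, its annotation, its use of strand and the treatment of multiply mapped reads are not given in the sources used here.

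Size factors were medians of ratios over genes read in both libraries (1.14 and 0.876). TMM factors (edgeR 4.0.16, R 4.3.3) and total counts were alternatives, and shifted the median log2 fold change by -0.0097 and -0.080. Other alternatives were pseudocounts of 0.1 and 10, minimums of 1 and 100 reads, flanks of 0.5 and 2 Mb and subtraction of the GC trend. With 1 library per cell line no test was run. Intervals (Clopper-Pearson for ratios, exact Poisson for CPM) came from scipy 1.17.1. Only the ratio intervals were tested on simulated data, which held counting error alone.

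Positions, transcript lengths and GC content came from GENCODE v44lift37 on GRCh37. By symbol 26511 rows matched and by an older RefSeq symbol 2227, or 83.9% of the genes tested and all 10 genes of the set, and rows without a position are not in the window. The genes named are the set, genes of its window, list genes past the criterion or closest in function, and genes nearly absent from Ramos640 (at most 3 reads, against 100 or more in Ramos). Genes called on under 100 reads were named after their values were seen. Values of 2 list genes are not reported here. The genes and lists were chosen with earlier results of these data known.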

Additional observations from a re-analysis of the deposited data

How the results depend on the processing

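No paired analysis was possible because each cell line has 1 library. CPXM1, C20orf194 and ATRN were lower, and DDRGK1 higher, past the fold criterion under all alternatives run. Subtracting the GC trend left 1 higher gene of the set instead of 2, 2 higher genes of the window instead of 7 and 2 between CPXM1 and C20orf194 instead of 4, and moved the window median from 0.12 to -0.047. Over the protein-coding genes, 9.54% were higher before the subtraction and 8.21% after it. Total counts gave 3 higher genes of the window and a median of 0.038. Flanks of 2 Mb gave a median of -0.011 with 7 of 39 genes lower instead of 4 of 27, beside 17.0% of the protein-coding genes tested. A minimum of 1 read gave 7 of 34 genes lower, among them EBF4, which has 1 read. The share over all genes at that minimum was not computed. The counts of higher genes in the window and between the 2 genes were recomputed after seeing the data. The cause of these shifts was not tested. Depth limits EBF4, which cannot be compared, and the ratios of CPXM1 and C20orf194, of which only the lower interval limits, 89.4 and 16.6, are close to fixed by the counts.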

Other observations

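Beyond the window, the rest of chromosome 20 resembled the table as a whole. Of the 306 protein-coding genes there that passed the minimum of 10 reads, 41 (13.4%) were lower and 30 (9.8%) were higher in Ramos640, beside 17.0% and 9.54% over the 12092 protein-coding genes tested. Their summed reads were 684713 (Ramos) and 567603 (Ramos640), and the log2 ratio after scaling was 0.11. In the window without CPXM1 and C20orf194, the ratio was 0.34 over 25 genes, with SNRPB, a core protein of the spliceosome (21834 and 19180 reads), and NOP56, a core protein of the ribosomal RNA methylating particle (18290 and 21384 reads), holding the most reads.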
